A study of Homo sapiens with 40 samples.

Results

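Nuclear receptor coregulators were followed in single T47D cells through 8 genes chosen by name from the 60279 genes listed in each count table. They were the p160 coactivators NCOA1, NCOA2 and NCOA3, the coactivators NCOA6 and MED1, the acetyltransferases EP300 and CREBBP, and the corepressor NCOR1. All 8 were found by Ensembl identifier in the tables of all 3 protocols. T47D is a luminal human breast cancer line that carries receptors for estrogen and progesterone. The deposited data hold 13 cells prepared with G&T, 13 with Takara and 14 with NEB. G&T stands for Genome & Transcriptome sequencing, in which mRNA is first separated from genomic DNA, Takara for the SMART-seq HT kit, and NEB for the NEBNext Single Cell/Low Input kit. The labels name no drug or hormone treatment and give passage 10 for all cells. The cells were sorted as positive for EpCAM and CD49f and negative for CD45 and CD31.

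Each protocol had its own lysis buffer, plate and sequencing run, and NEB cDNA was amplified with more PCR cycles than that of the other protocols. Protocol therefore cannot be told apart from run, or from any difference in culture or sorting. Each protocol was treated as 1 sample. The cells are not replicates of a protocol, so no test was made, and every SD and range describes the cells of 1 run. Less of a transcript in a cell and a poorer capture of it cannot be told apart either.

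A nuclear receptor such as the estrogen receptor is a transcription factor that is switched by a small lipophilic hormone. With an agonist bound, the receptor exposes a groove that takes up short leucine-rich helices of coactivators, whose motif is written LXXLL, where L is leucine and X any residue. The p160 proteins dock in this way and bring in EP300 and CREBBP, which acetylate histones, while MED1 links the receptor to the Mediator complex and RNA polymerase II. NCOA6 docks likewise and belongs to a complex with histone H3 methyltransferases. NCOR1 binds receptors that lack an agonist, through related motifs rich in isoleucine, and carries histone deacetylase HDAC3 to the gene. NCOA3 is also known as AIB1, for amplified in breast cancer.

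Codons that match these motifs are shown to describe the genes, although many other genes hold such matches too. They were found by translating the canonical coding sequence of each gene in GENCODE 44 and searching it for LXXLL, and in NCOR1 also for I/LXXII, in which I is isoleucine. The coding strand of GRCh38 is given from 5′ to 3′ with the 5 motif codons in capitals and flanks of the same exon in lower case. For NCOA1, exon 13 holds motifs that start at residues 633, 690 and 749.
NCOA1 residue 633, chr2:24707352-24707396, plus strand: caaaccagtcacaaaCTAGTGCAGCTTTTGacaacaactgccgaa
NCOA1 residue 690: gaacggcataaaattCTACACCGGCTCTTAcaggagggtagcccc
NCOA1 residue 749: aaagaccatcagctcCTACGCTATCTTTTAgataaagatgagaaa
In NCOA3, exon 12 holds the motifs at residues 621, 685 and 738.
NCOA3 residue 621, chr20:47636232-47636276, plus strand: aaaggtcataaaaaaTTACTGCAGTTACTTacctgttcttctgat
NCOA3 residue 685: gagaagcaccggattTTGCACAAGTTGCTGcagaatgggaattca
NCOA3 residue 738: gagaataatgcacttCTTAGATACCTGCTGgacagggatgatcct
In MED1, exon 17 holds both motifs, at residues 604 and 645.
MED1 residue 604, chr17:39410382-39410426, minus strand: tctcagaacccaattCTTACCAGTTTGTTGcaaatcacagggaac
MED1 residue 645: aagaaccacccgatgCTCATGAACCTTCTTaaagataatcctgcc
For NCOA6, EP300 and CREBBP the first motif is given, from exons 9, 2 and 2.
NCOA6 residue 887, chr20:34749507-34749551, minus strand: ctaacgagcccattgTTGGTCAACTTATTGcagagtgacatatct
EP300 residue 81, chr22:41117318-41117362, plus strand: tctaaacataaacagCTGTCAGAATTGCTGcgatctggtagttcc
CREBBP residue 70, chr16:3850858-3850902, minus strand: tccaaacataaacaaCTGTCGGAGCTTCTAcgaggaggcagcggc
For NCOR1 the last I/LXXII match, in exon 44, is given.
NCOR1 residue 2263, chr17:16039572-16039616, minus strand: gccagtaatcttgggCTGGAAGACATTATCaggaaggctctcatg

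Counted over whole proteins, LXXLL matched 7 times in NCOA1, 5 in NCOA3, 4 in NCOA2, 3 each in EP300 and CREBBP, 2 each in NCOA6 and MED1 and once in NCOR1, which also had 5 matches to I/LXXII. Of 20046 canonical coding transcripts, 44.8% held at least 1 LXXLL match, and 1.21% held at least as many as NCOA1. A match is a description of the letters and not a docking site, and the counts per gene do not say whether reads fell on these codons. The 8 canonical transcripts also share their size, from 7083 bases for NCOA6 to 10790 bases for CREBBP.

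After the quality thresholds of the study, 11 cells remained in each protocol, with library sizes of 672328 to 1192383 reads in G&T, 827663 to 1297218 in Takara and 720899 to 1021613 in NEB. These cells had reads on 9541 to 12794 genes in G&T, 10624 to 11855 in Takara and 4416 to 6719 in NEB, and ERCC spike-ins took at most 2.75%, 1.33% and 18.9% of the library. The 6 luminal markers examined all had reads in each protocol, with a summed level of 3828 to 14312 CPM per cell in G&T, 9857 to 26570 in Takara and 1191 to 4194 in NEB. CPM is the count of a gene scaled to a fixed total of reads on genes in the cell. Of 8 markers of other cell types, VIM and COL1A1 were the only ones with reads in Takara and NEB, and PTPRC, PECAM1, KRT5 and KRT14 had at most 12 reads each in G&T. CD3E and LYZ had none in any protocol. The summed level of these 8 markers reached 44.6 CPM in a G&T cell, 53.7 in a Takara cell and 128 in an NEB cell.

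Together the 8 coregulators took 5196 reads with G&T, 2612 with Takara and 5116 with NEB. Their summed level, pooled over the 11 cells of a protocol, was 546.9 CPM with G&T (532 to 562, a 95% Poisson interval), 223 CPM with Takara (214 to 232) and 642 CPM with NEB (624 to 659). By cell, the sum ran from 249 to 778 CPM in G&T with a median of 507, from 129 to 321 in Takara with a median of 226, and from 343 to 1200 in NEB with a median of 568. Every NEB cell therefore stood above every Takara cell for the sum, while the G&T range overlapped both others. This separation was lost with spike-in reads in the denominator, where the lowest NEB cell stood at 315 CPM and the highest Takara cell at 319, and with all deposited cells, where 1 removed Takara well reached 1762 CPM. The reads carry no molecular identifiers, so the intervals here and below cover counting error only.

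The similar sums of G&T and NEB were spread over the cells in different ways. A G&T cell had reads on 7.91 ± 0.302 of the 8 genes (mean and SD, n = 11 cells), a Takara cell on 7.64 ± 0.674, and an NEB cell on 5.55 ± 1.21. All 8 genes were detected in 10 G&T cells, 8 Takara cells and 1 NEB cell. Of the 88 values per protocol, 1 for each gene and cell, 1 was a count of 0 with G&T, 4 with Takara and 27 with NEB. A count of 0 in a single cell still allows a level of up to 2.57 to 4.56 CPM in G&T, 2.33 to 3.67 CPM in Takara and 3.11 to 4.80 CPM in NEB, taken as 3 reads. At the depth of the smallest kept library, the expected number of detected coregulators was 7.90 with G&T, 7.56 with Takara and 5.43 with NEB.

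**Figure D1:**
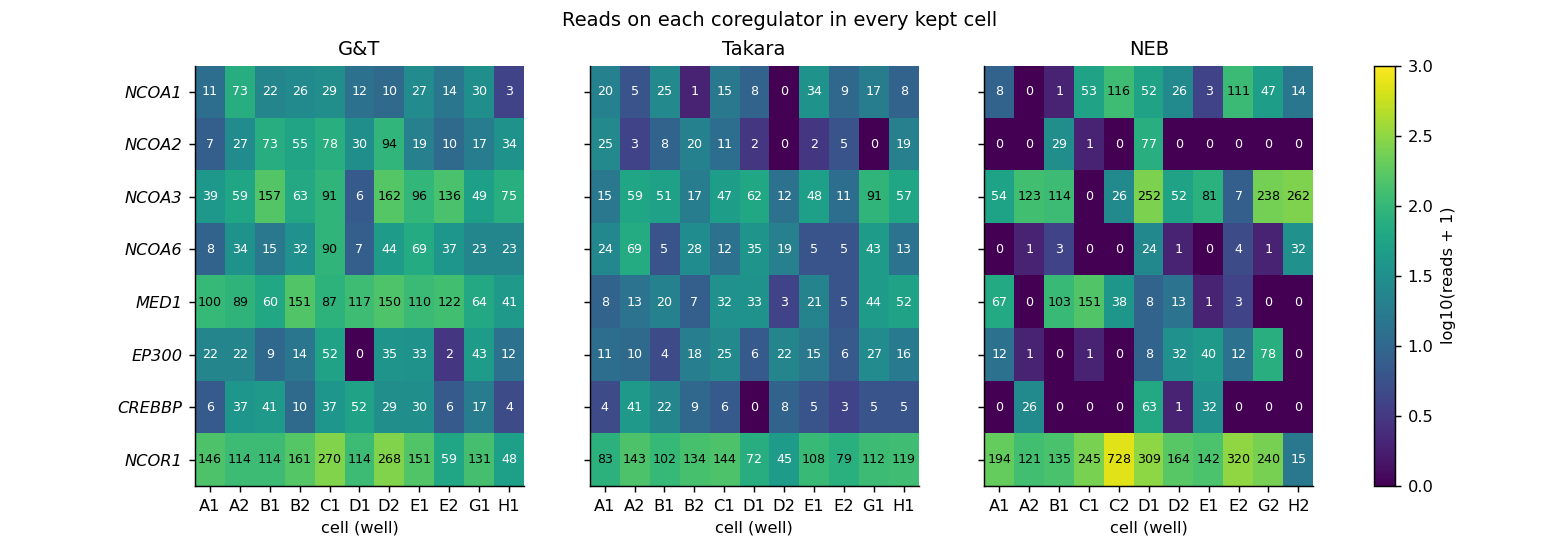
Reads on each coregulator (rows) in every kept cell (columns, by well) of the 3 protocols, with the count printed and log10(reads + 1) as colour. Zeros number 1 with G&T, 4 with Takara and 27 with NEB. Every NEB row but that of NCOR1 holds zeros, and NEB cell C2 has 728 reads on NCOR1 beside 4 zeros.

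NEB cells differed in which coregulators they showed. Cell D1 had reads on all 8, among them 252 on NCOA3, 77 on NCOA2 and 63 on CREBBP. Cell C2 had 728 reads on NCOR1 and 116 on NCOA1, and none on NCOA2, NCOA6, EP300 or CREBBP. Cell H2 had 262 reads on NCOA3, 32 on NCOA6, 15 on NCOR1 and 14 on NCOA1, and none on the other 4 genes.

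NCOA1, known as SRC-1, lies at chromosome 2, 24491254 to 24770702 (GRCh38, as for all coordinates here, ENSG00000084676, plus strand). Its level per cell ran from 3.11 to 95.8 CPM in G&T (median 21.9), from 0 to 31.7 CPM in Takara (median 9.45) and from 0 to 153 CPM in NEB (median 39.5). It was detected in 11 G&T, 10 Takara and 10 NEB cells, and the ranges of all 3 protocols overlapped. Pooled, NCOA1 stood at 27.1 CPM in G&T (23.8 to 30.6), 12.1 in Takara (10.2 to 14.3) and 54.1 in NEB (49.1 to 59.4).

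NCOA3 was the p160 gene with the highest pooled level in each protocol, at 98.2 CPM in G&T (92.0 to 104.7), 40.1 in Takara (36.6 to 43.9) and 152 in NEB (143 to 160). The gene lies at chromosome 20, 47501887 to 47656877 (ENSG00000124151, plus strand). Cells ran from 9.0 to 156 CPM in G&T (median 92.9), from 11.5 to 72 in Takara (median 44.8) and from 0 to 381 in NEB (median 113). Only NEB cell C1 had no read on it, and 8 of 11 G&T cells and 8 of 11 NEB cells stood above the highest Takara cell.

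NCOA2, known as TIF2 or GRIP1 (ENSG00000140396), was seen in all G&T cells, at 8.67 to 83.6 CPM with a median of 35.4. Takara cells ran from 0 to 28.3 CPM with a median of 5.25, and 9 of 11 had reads. In NEB, 3 of 11 cells had reads (27.3%, exact binomial interval 6.02% to 61.0%), so the median was 0 and the highest cell stood at 79.9 CPM. NEB cell D1 held 72% of the 107 NEB reads on the gene. The pooled level of NCOA2 was 46.7 CPM in G&T (42.5 to 51.3), 8.11 in Takara (6.56 to 9.91) and 13.4 in NEB (11 to 16.2).

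MED1, the Mediator subunit that receptors contact, had its highest level in G&T. The gene lies at chromosome 17, 39404285 to 39451272 (ENSG00000125686, minus strand). G&T cells ran from 42.5 to 229 CPM (median 124), Takara cells from 3.67 to 42.0 CPM (median 19.6) and NEB cells from 0 to 231 CPM (median 8.30). Every G&T cell thus stood above every Takara cell, by a margin of 42.5 against 42.0 CPM, while NEB spanned both ranges with 3 cells at 0. The pooled level was 115 CPM in G&T (108 to 122), 20.3 in Takara (17.8 to 23.1) and 48.2 in NEB (43.5 to 53.2).

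NCOA6, known as ASC-2 or PRIP, was the 1 coregulator whose pooled NEB level lay below both others. It lies at chromosome 20, 34689097 to 34825651 (ENSG00000198646, minus strand). Cells ran from 9.91 to 92.5 CPM in G&T (median 37.7), from 4.66 to 64.5 in Takara (median 23.2) and from 0 to 45.4 in NEB (median 1.52). All G&T and Takara cells had reads on it, against 7 of 11 NEB cells, of which only 2 had at least 5 reads. Pooled, NCOA6 stood at 40.2 CPM in G&T (36.3 to 44.5), 22 in Takara (19.4 to 24.9) and 8.28 in NEB (6.4 to 10.5).

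EP300 and CREBBP encode the paralogous acetyltransferases p300 and CBP. EP300 lies at chromosome 22, 41092592 to 41180077 (ENSG00000100393, plus strand), and ran from 0 to 54.6 CPM over G&T cells (median 27.3), from 4.13 to 26.9 over Takara cells (median 12.9) and from 0 to 125 over NEB cells (median 8.30). Its pooled levels of 25.7 CPM in G&T (22.6 to 29.1) and 23.1 CPM in NEB (19.9 to 26.7) had overlapping counting intervals, and Takara stood at 13.7 CPM (11.6 to 15.9). CREBBP lies at chromosome 16, 3725054 to 3880713 (ENSG00000005339, minus strand), and ran from 4.15 to 78.0 CPM over G&T cells (median 24.9), from 0 to 38.4 over Takara cells (median 4.66) and from 0 to 65.4 over NEB cells (median 0). NEB reads on CREBBP came from 4 of 11 cells, and on EP300 from 8. Pooled, CREBBP stood at 28.3 CPM in G&T (25 to 31.9), 9.22 in Takara (7.56 to 11.1) and 15.3 in NEB (12.7 to 18.3).

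NCOR1, the corepressor, was the only 1 of the 8 with reads in all 33 kept cells. It lies at chromosome 17, 16029065 to 16218185 (ENSG00000141027, minus strand). Its level ran from 49.8 to 276 CPM over G&T cells (median 171), from 55 to 134 over Takara cells (median 96.1) and from 21.3 to 962 over NEB cells (median 291). Of the NEB cells, 10 of 11 stood above the highest Takara cell and H2 stood below the lowest. The pooled level was 166 CPM in G&T (158 to 174), 97.4 in Takara (91.8 to 103) and 328 in NEB (315 to 341).

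**Figure D2:**
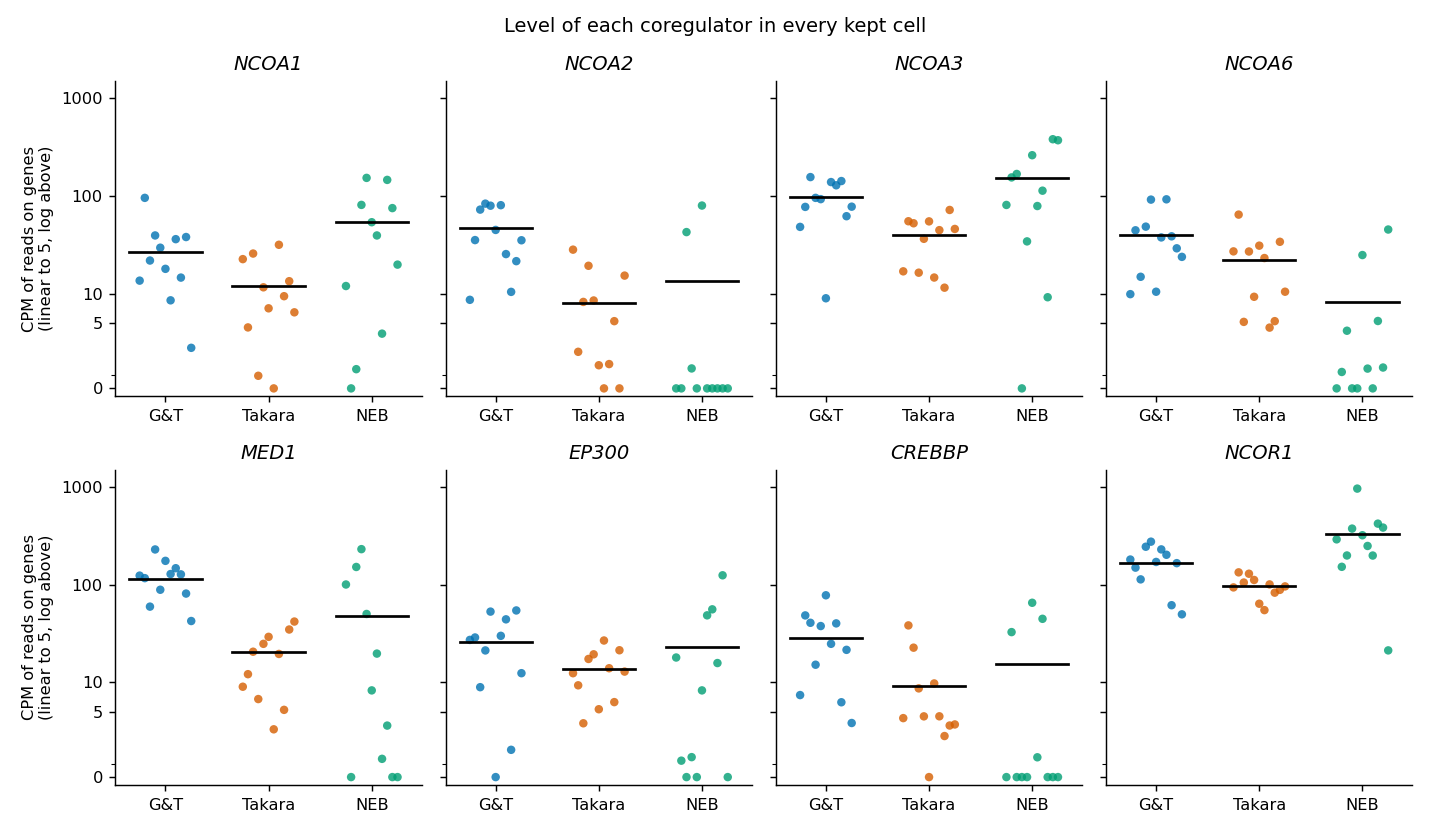
CPM of each coregulator in every kept cell, 11 points per protocol, on an axis that is linear to 5 CPM and logarithmic above, with a black line at the pooled level. MED1 is the gene whose G&T cells (42.5 CPM or more) all lie above the Takara cells (42.0 CPM or less), and NCOA2, NCOA6 and CREBBP hold many NEB cells at or near 0.

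Since NCOR1 acts against the 7 coactivators, its reads were set beside theirs within each cell. Pooled, NCOR1 reads per coactivator read came to 0.435 with G&T, 0.776 with Takara and 1.04 with NEB. By cell, the ratio ran from 0.180 to 0.756 in G&T, from 0.493 to 1.80 in Takara and from 0.0487 to 4.04 in NEB, with medians of 0.459, 0.756 and 0.904. NCOR1 was the member with the most reads in 7 G&T cells, all 11 Takara cells and 9 NEB cells, and its reads exceeded those of the 7 coactivators together in 0, 2 and 5 cells. The ranges overlapped between all protocols, and the lengths of the genes enter these ratios as they stand.

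Levels of different genes were compared per kilobase of canonical transcript. NCOR1 came first in every protocol, at a pooled 15.5 CPM per kilobase with G&T, 9.10 with Takara and 30.6 with NEB. In G&T it was followed by MED1 (14.1), NCOA3 (12.3), NCOA6 (5.68), NCOA2 (5.54), NCOA1 (3.67), EP300 (2.93) and CREBBP (2.62). In Takara the order was NCOA3 (5.04), NCOA6 (3.11), MED1 (2.50), NCOA1 (1.64), EP300 (1.56), NCOA2 (0.962) and CREBBP (0.854).

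In NEB the order per kilobase was NCOA3 (19.0), NCOA1 (7.32), MED1 (5.92), EP300 (2.63), NCOA2 (1.59), CREBBP (1.42) and NCOA6 (1.17). Most neighbours in these orders were not separated. The gap between the means of 2 neighbours exceeded the larger of their SDs over cells only between NCOA3 and NCOA6 in G&T and between NCOR1 and NCOA3 in Takara. With the length of all exons of a gene in place of the canonical transcript, an alternative added after seeing the data, MED1 came first in G&T at 13.3 CPM per kilobase and NCOR1 followed NCOA3 at 10.6.

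**Figure D3:**
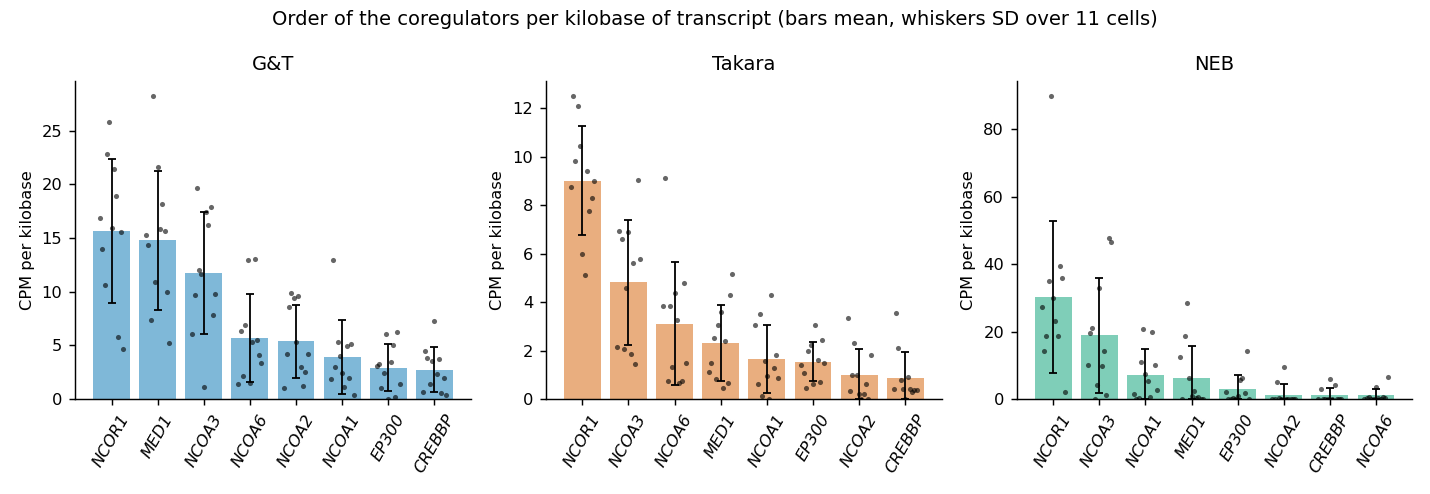
Level of each coregulator per kilobase of canonical transcript, in the order of the pooled level within each protocol, with bars at the mean, whiskers of 1 SD cut off at 0 and points for the 11 cells. The vertical axes differ between protocols, and NCOR1 leads in all 3, with a pooled 15.5, 9.10 and 30.6 CPM per kilobase.

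Between G&T and Takara, all 8 coregulators had a higher pooled level in G&T. The comparison used the log2 ratio of pooled CPM after adding 1 CPM, over 14658 genes with at least 1 CPM in either protocol, and 2-fold was taken as the size to count. NCOA1, NCOA2, NCOA3, MED1 and CREBBP were at least 2-fold higher in G&T, which is 5 of 8 members, where 25.7% of all genes tested were. None was 2-fold higher in Takara, where 17% of genes were. MED1 and NCOA2 stood farthest apart. MED1 had a log2 of 2.44 and a ratio of 5.65 before the added CPM (95% counting interval 4.91 to 6.53). NCOA2 had a log2 of 2.39 and a ratio of 5.76 (4.61 to 7.27), so their order was not separated. CREBBP had a log2 of 1.52, NCOA3 of 1.27, NCOA1 of 1.10, EP300 of 0.86, NCOA6 of 0.84 and NCOR1 of 0.76. Single cells decided which genes near the threshold passed it. NCOA1 fell short without G&T cell A2 (0.75) or Takara cell B2 (0.98) or D2 (0.9996), and NCOA6 passed without Takara cell A2 (1.14), as did EP300 without G&T cell E2 (1.00).

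The median log2 ratio of G&T over Takara was 1.18 for the 8 members and 0.16 for all genes tested. Among 1120 tested genes with a canonical transcript in the members' length range, the median was 0.91, 45.3% were at least 2-fold higher in G&T and 5.27% were at least 2-fold higher in Takara. The part of length in the members' ratios was not tested beyond these values. The gap between cell means exceeded the larger SD over cells for NCOA2, NCOA3 and MED1. MED1 was the 1 member with every G&T cell above every Takara cell, as 0.669% of genes were, and no member showed the opposite, as 1.26% did. The MED1 separation was lost when spike-in reads entered the denominator of CPM and when all deposited cells were used.

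Between G&T and NEB, the members split. NCOA6, NCOA2 and MED1 were at least 2-fold higher in G&T, with log2 ratios of 2.15, 1.73 and 1.24, where 48.7% of 14795 genes tested were. None passed 2-fold in the other direction, where 19.5% did, but NCOR1 at -0.98 and NCOA1 at -0.97 lay just short of it. Leaving out any 1 of the G&T cells A2, B2, C1, D2, E1 and G1 or the NEB cells A1, A2, B1, D2, E1 and H2 brought 1 or both of them past it, as TMM scaling did for both. NCOA3 had a log2 ratio of -0.62, EP300 of 0.15 and CREBBP of 0.85. Without NEB cell G2 the EP300 value was 0.79, and CREBBP passed 2-fold without NEB cell A2 (1.03), D1 (1.64) or E1 (1.13). The median was 0.50 over the members, 0.92 over all genes tested and 0.46 over the genes in the members' length range. Of the genes in that length range, 41.7% were at least 2-fold higher in G&T and 20.0% at least 2-fold higher in NEB. The members' median was 2.00 when log2 values of single cells were averaged and -0.44 with all deposited cells. Averaging also brought EP300 to 1.13, CREBBP to 2.86 and NCOA3 to 0.13.

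Ratios of G&T over NEB rested in part on which wells were kept. NEB well B2, removed for its share of spike-in reads, held 386 reads on NCOA2, and with all deposited cells the log2 ratio of NCOA2 was -0.34, that of EP300 -0.67 and that of MED1 0.77, short of 2-fold. Without NEB cell D1 the NCOA2 ratio was 3.18, and the NCOA6 ratio without NEB cell H2 was 2.86. The gap between cell means exceeded the larger SD for NCOA2 and NCOA6. No member had every G&T cell above every NEB cell, as 3.31% of genes did, or every NEB cell above every G&T cell, as 1.03% did.

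Between NEB and Takara, 7 of 8 members had a higher pooled level in NEB. NCOA1, NCOA3, NCOR1 and MED1 were at least 2-fold higher in NEB, where 24.3% of 13532 genes tested were, with log2 ratios of 2.07, 1.89, 1.74 and 1.21. NCOA6 alone was at least 2-fold higher in Takara, with a log2 ratio of -1.31, as 43.7% of genes were. EP300, CREBBP and NCOA2 had log2 ratios of 0.72, 0.67 and 0.66. The median was 0.96 over the members, -0.56 over all genes tested and 0.47 over the genes in the members' length range. Of the genes in that length range, 38.4% were at least 2-fold higher in NEB and 27.2% at least 2-fold higher in Takara.

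These pooled values of NEB come from few cells for several genes. Without cell D1 the log2 ratio was -0.79 for NCOA2 and -0.12 for CREBBP, without cell G2 it was 0.07 for EP300, and without cell H2 it was -2.02 for NCOA6. MED1 fell short of 2-fold without cell B1 (0.89) or C1 (0.62), and CREBBP passed it without Takara cell A2 (1.16). For no member did the gap between cell means of NEB and Takara exceed the larger SD. When log2 values of single cells were averaged instead of pooling, the median over the members was -0.60. MED1 (-0.48), NCOA2 (-1.29), CREBBP (-1.16) and EP300 (-0.73) then had negative ratios, so that only NCOA1, NCOA3 and NCOR1 stayed higher in NEB. No member had every NEB cell above every Takara cell, as 1.61% of genes did, or the reverse, as 8.41% did. Without NEB cell H2, NCOR1 had every NEB cell above every Takara cell.

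**Figure D4:**
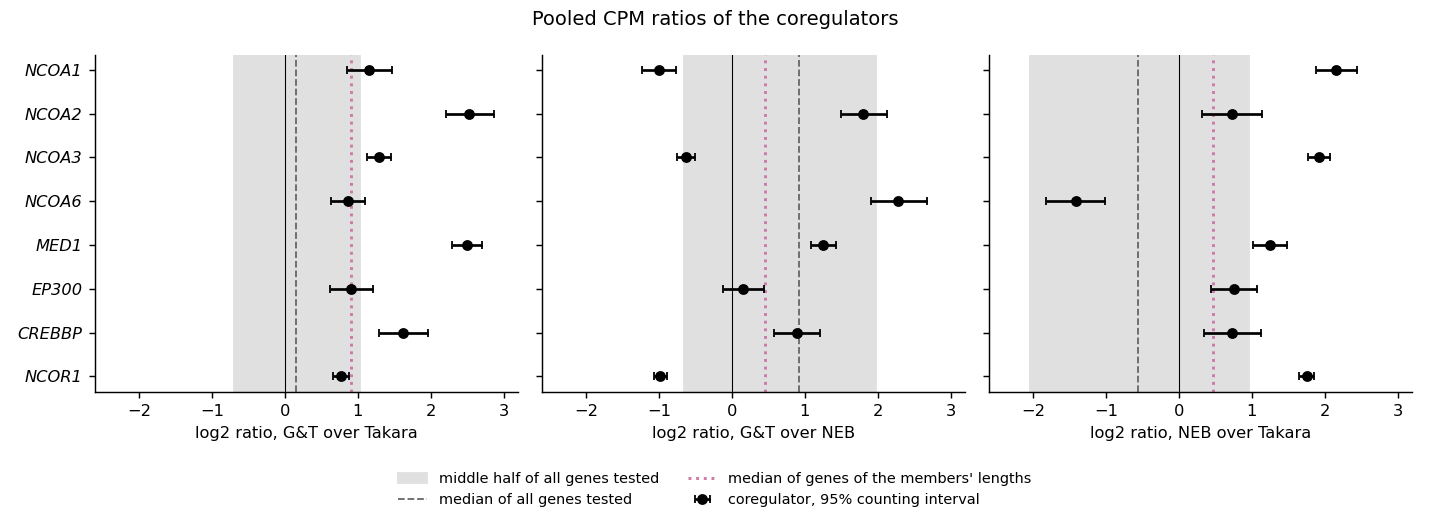
Log2 ratios of the pooled CPM of each coregulator for the 3 pairs of protocols, with 95% counting intervals, beside the median (dashed) and interquartile range (grey) of all genes tested and the median of genes in the members' length range (dotted). The points carry no added CPM, the reference lines do. In G&T over Takara all 8 points lie right of 0, in G&T over NEB they lie on both sides, and in NEB over Takara only NCOA6 lies left of 0.

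The spread between cells differed by protocol. The coefficient of variation over cells, the SD as a percentage of the mean, had a median over the 8 members of 67.8% with G&T, 74.8% with Takara and 153% with NEB. Among all genes at 10 CPM or more the medians were 71.1%, 49.97% and 127%. NCOR1 varied least in each protocol, with 42.7%, 25.1% and 74.2%. NCOA2 in NEB varied most of all, with 231%.

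In G&T, 7 of 8 members had reads in every kept cell, in Takara 5 and in NEB 1, where 65.8%, 79.7% and 20.9% of all genes at 10 CPM or more did. Of the members that reached 10 CPM themselves, 7 of 8 had reads in every cell in G&T, 5 of 6 in Takara and 1 of 7 in NEB, and their median coefficients of variation were 67.8%, 60.7% and 151%. The cell with the most reads on a gene held a median of 20.3% of the member's reads with G&T, 22.9% with Takara and 40.9% with NEB, against 21.9%, 17.5% and 32.7% for all genes at 10 CPM or more. Beside NCOA2, the highest such shares in NEB were 51.6% for CREBBP in cell D1 and 48.5% for NCOA6 in cell H2.

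The 11 cells of a protocol share a run. Across them, the 28 member pairs had a median Spearman correlation of CPM of 0.259 with G&T, 0.0318 with Takara and 0.0291 with NEB. Over all pairs of 5288 genes at 10 CPM or more in every protocol these medians were 0.0545, 0 and 0.00909. NCOA2 and CREBBP in Takara and NCOA6 in NEB lay below that level. The coefficient was above 0 in 22 pairs with G&T and in 15 with NEB. The count with Takara was 15 only if NCOA3 with CREBBP, at a coefficient of 0, is included. In 7 of 28 pairs the coefficient was above 0 in all 3 protocols, beside 14.4% of all pairs of the 5288 genes. The 28 pairs share members, and nothing is read from this count. NCOA3 with NCOA6 had 0.391 with G&T, 0.455 with Takara and 0.554 with NEB, and NCOA1 with NCOR1 had 0.273, 0.0636 and 0.873. EP300 with CREBBP had 0.0273, 0.10 and 0.276.

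The gene most like each member was taken as the one with the highest mean of the 3 coefficients among 5283 genes, over 33 cells. These were CCNT1 for NCOA1 (mean 0.610), TMEM216 for NCOA2 (0.679), UBFD1 for NCOA3 (0.621), RALGAPB for NCOA6 (0.616), ATL2 for NCOR1 (0.669), DMAP1 for MED1 (0.635), WBP11 for EP300 (0.618) and CREBBP had NUP93 (0.705). The runner-up of MED1 reached 0.632, that of NCOA1 0.608, that of NCOA6 0.605, that of CREBBP 0.691 and that of NCOR1 0.653. The most distant was that of NCOA2, at 0.607. Separation from the next gene was not shown for any member. In sparse counts such likeness is a description only.

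The estrogen and progesterone receptors, which these proteins serve, were measured in the same cells. ESR1 stood at a pooled 235 CPM with G&T, 73.1 with Takara and 877 with NEB, with reads in all 33 cells. Every NEB cell (225 to 2086 CPM) stood above every Takara cell (15.5 to 151 CPM), as was so for 1.61% of genes tested. PGR stood at 428, 164 and 1068 CPM, also with reads in all cells.

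The partners of the coregulators were described through 6 lists with 75 genes, of which all but PAGR1 were in the tables. Over these lists, 20 of 73 genes tested were at least 2-fold higher in G&T than in Takara and 17 were lower. Among all genes tested 25.7% and 17% were, and the list median log2 ratio was 0.07. Against NEB, 28 of 73 were at least 2-fold higher in G&T and 15 lower, beside 48.7% and 19.5% of all genes. The list median was 0.59. Between NEB and Takara, 19 of 70 were at least 2-fold higher in NEB and 26 lower, beside 24.3% and 43.7% of all genes. The list median was -0.57. Among the 8 coregulators the corresponding counts were 5 and 0, 3 and 0, and 4 and 1. The same shares of all genes apply to the counts of single lists below.

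The complex in which NCOR1 works held the gene with the highest level of all lists. TBL1XR1 is a WD40 exchange factor of the complex. It stood at 7131 CPM in NEB (cells 5202 to 14838), 460 in G&T (156 to 925) and 266 in Takara (190 to 377). Every NEB cell stood above every G&T cell, as was so for 1.03% of genes tested, and above every Takara cell, as for 1.61%. TBL1XR1 was named for its large ratios. It was the gene with rank 5 of all genes in NEB, against rank 261 in G&T and 701 in Takara. NEB well F1, removed with 99.7% of its library on spike-ins, had 12 of its 1421 reads on genes on TBL1XR1. Whether these reads came from a cell in that well was not tested. The paralog TBL1X stood highest in G&T, at 85.9 CPM against 14.9 in Takara and 27.1 in NEB. For TBL1X every G&T cell stood above every Takara cell, as was so for 0.669% of genes tested. HDAC3, the deacetylase of the complex, stood at 115 CPM with Takara, 26.8 with G&T and 6.65 with NEB, where 2 of 11 cells had reads. GPS2, a further subunit, had at most 4 reads in any protocol.

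Among 11 other corepressors, 5 were at least 2-fold higher in G&T than in Takara and 1 was lower. CTBP1, a dimeric corepressor, stood at 74.1 CPM with G&T, 12.2 with Takara and 128 with NEB. Every NEB cell (76.8 CPM or more) lay above every Takara cell (23.7 CPM or less), as was so for 1.61% of genes tested. PHB2, a prohibitin that also represses the estrogen receptor, had no read in any kept NEB cell, against 85.5 CPM in G&T and 81.8 CPM in Takara. With 3 reads over the pooled NEB cells as the limit of a count of 0, these levels stood 227-fold and 218-fold above the limit. Such folds leave out the counting error of the G&T and Takara levels. The limit also takes reads as independent draws, so none of these folds is a lower bound on the difference. Such genes were not rare, as 429 of the 7226 genes at 10 CPM or more in both G&T and Takara (5.94%) had no read in a kept NEB cell. None of the 8 coregulators was among them.

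Enzymes that join p160 proteins were covered unevenly in NEB. Of these 6 histone-modifying partners, 2 were at least 2-fold higher in G&T than in Takara and 1 was lower, and 4 were higher in G&T than in NEB and none lower. CARM1, an arginine methyltransferase, stood at 12.1 CPM in G&T with reads in 9 cells. In Takara it stood at 0.683 CPM with 4 cells, and it had no read in NEB. G&T cell H1 held 68 of the 115 G&T reads on CARM1, and the median over G&T cells was 2.68 CPM. KAT2A, an acetyltransferase known as GCN5, stood at 36.9 CPM in G&T and had no read in NEB. That G&T level lay 98.2-fold above the same limit for a count of 0. PRMT2, another methyltransferase of this list, stood at 133 CPM in NEB with reads in 10 cells and at 111 CPM in G&T. PRMT1 stood at 36.5 CPM in NEB with reads in 6 cells and at 62.4 CPM in G&T.

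For the partners of NCOA6, 8 genes were tested, and 3 were at least 2-fold higher in G&T than in Takara and 1 lower. KMT2C, a histone H3 methyltransferase of that complex, stood at 98.2 CPM in G&T (cells 27.0 to 183), 12.6 in Takara (0.967 to 28.9) and 14.2 in NEB (0 to 51.2). Its G&T and Takara cells overlapped only between 27.0 and 28.9 CPM. KMT2D, its paralog, stood at 40.6, 9.82 and 4.26 CPM.

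Of 31 Mediator subunits other than MED1, 4 were at least 2-fold higher in G&T than in Takara and 9 were lower, with a median log2 ratio of -0.15. MED13, a large subunit of the kinase module, stood at 82.6 CPM with G&T, 11.2 with Takara and 189 with NEB. MED16 and MED24, subunits of the tail, had the largest ratios in favour of Takara, at 75.1 CPM against 11.9 in G&T for MED16 and 89.8 against 25.5 for MED24. MED16 and MED15 had no read in NEB, which placed MED16 in Takara 200-fold and MED15 in G&T 79.7-fold above the same limit. MED27 stood at 84.8 CPM in Takara and 1.25 in NEB.

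In NEB against G&T, MED7 had a log2 ratio in favour of NEB of 3.27, at 224 against 22.3 CPM, and MED23 of 2.37, at 34.1 CPM from 3 cells against 5.79. Of the 13 other coactivators, 5 were at least 2-fold higher in G&T than in Takara and 4 lower.

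**Figure D5:**
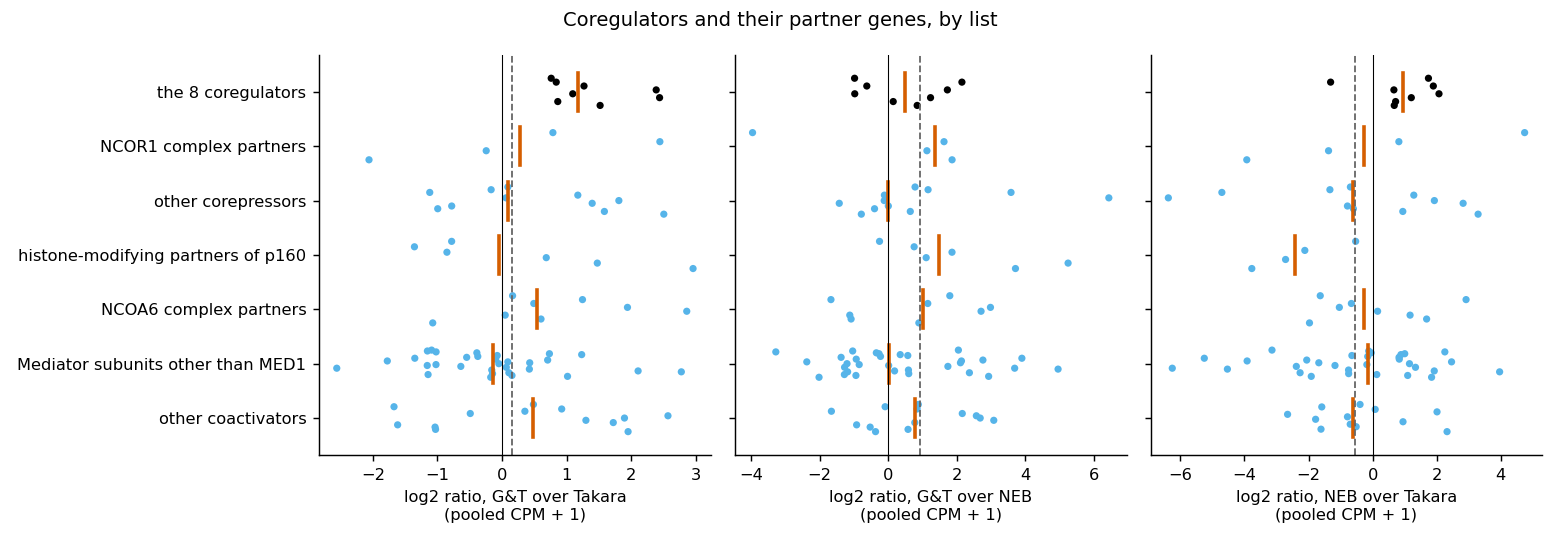
Log2 ratios of pooled CPM plus 1 for the 8 coregulators (black) and the genes tested in 6 lists of partners (blue), for the 3 pairs of protocols, with the list median in orange and the median of all genes tested dashed. The coregulators' medians were 1.18, 0.50 and 0.96. Genes with no NEB read, such as PHB2, are placed by the added CPM and their ratios are not estimates.

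Reads on a gene may be uncertain where gene models share sequence, and whether strand was used in counting is not stated. Of the 50-base windows of each canonical transcript, none occurred in another gene for NCOA1, NCOA2 and CREBBP, 0.149% did for EP300, 2.57% for NCOA3 and NCOA6 and 2.70% for NCOR1. For MED1 the share was 8.73%, all with the overlapping gene ENSG00000266469, which had 244 reads with G&T, 78 with Takara and 83 with NEB. Genes that overlap NCOA6 (PIGU and TP53INP2) had 909, 1306 and 106 reads, and the 8 that overlap NCOR1, among them TTC19 and PIGL, had 549, 878 and 699. Their part in the coregulator counts was not tested.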

How the data were processed

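The authors used Trim Galore and then STAR on GRCh38, and deposited raw counts of reads per gene, with 1 column per cell and neither normalization nor a filter. The annotation release and the strand setting are not given in the sources used here. Rows of 92 ERCC spike-ins stand in each table too, and 4 rows of reads not assigned to a gene were left out. Cells passed with at least 1000 genes, a library of at least 600000 reads on genes and spike-ins, at most 30% mitochondrial and at most 25% ERCC reads. CPM used reads on genes. Pooled CPM sums reads over kept cells, with 95% Poisson intervals. Ratios were taken after adding 1 CPM, over genes with at least 1 CPM in either protocol. For a gene without reads, 3 reads were taken as the limit.

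Lengths, coordinates and coding sequences came from GENCODE 44, which lacks 4175 of the listed genes. The members and the gene lists were chosen with earlier results of these data known. From the partner lists, the text names the 3 genes of largest ratio in either direction of every pair of protocols, among those at 10 CPM or more in the higher protocol, the receptors ESR1 and PGR, and for each member the gene most correlated with it at 10 CPM or more in every protocol. TBL1X, GPS2, KMT2D, PRMT1 and PRMT2 were added after their values were seen. Some listed genes are not reported here. Alternatives were all deposited cells, spike-ins in the denominator, TMM scaling (edgeR 4.0.16, R 4.3.3), a pseudocount of 0.1 CPM, no filter on low genes, 5 reads for detection, thinning, averaging over cells, exon length and leaving out each cell. Steps were tested on simulated data that held counting error but no spread between cells. All steps were run in Python 3.11.15 (pandas 2.3.3, matplotlib 3.10.9, scipy 1.17.1 and numpy 2.4.6).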

Additional observations from a re-analysis of the deposited data

Results flagged for a closer look

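Wells removed by the quality thresholds also held reads on the 8 coregulators, which enter the comparisons only where all deposited cells are named. The removed G&T cells C2 and F1 held 192 and 435 such reads, and Takara cell C2 held 27, of which 26 were on NCOA6. NEB cell F2 held 297, and NEB cell B2 held 1032, of which 386 were on NCOA2, 170 on NCOA3, 169 on MED1, 141 on NCOR1 and 127 on EP300. In Takara cell F1 no such read was found among 7990 reads on genes, which allows up to 375 CPM.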

How the results depend on the processing

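With 1 run per protocol and no molecular identifiers, the values carry no error between runs, and depth limits the detection of genes below about 3 reads per cell. No paired analysis was possible because the result comes from no test and well positions do not link the cells of different protocols. The median log2 ratio of G&T over NEB was 0.50 from pooled reads, 2.00 from log2 values averaged over cells and -0.44 with all deposited cells, and that of NEB over Takara moved from 0.96 to -0.60 on averaging. Averaging also turned MED1 (-0.48), NCOA2 (-1.29), CREBBP (-1.16) and EP300 (-0.73) in NEB over Takara and NCOA3 (0.13) in G&T over NEB, and all deposited cells turned NCOA2 (-0.34) and EP300 (-0.67) in G&T over NEB. With all deposited cells, 1 coregulator was at least 2-fold higher in G&T than in NEB and 1 lower, 0 had every G&T cell above every Takara cell, and the mean number detected per Takara cell fell from 7.64 to 6.62. A minimum of 5 reads gave 6.91 per Takara cell. Spike-ins in the denominator also left 0 with every G&T cell above every Takara cell, and TMM scaling made 2 coregulators at least 2-fold higher in NEB than in G&T. When 1 cell was left out in turn, that count ranged from 0 to 2, and the count with every NEB cell above every Takara cell from 0 to 1. The share of all genes at least 2-fold apart fell without the filter on low genes, from 25.7% to 15.2% for G&T above Takara and from 48.7% to 30.9% for G&T above NEB. With exon lengths, 3 of 8 ranks per kilobase in G&T were as before. Among the other values under these settings, 54 that answer a comparison, the median of -0.44 included, and 98 of single genes or shares, the turned ratios with a main value under 2-fold included, moved by less than the SD over cells, or by less than 1.5 times for counts. TMM scaling shifted the log2 ratios of G&T over NEB by -0.10.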
